A study of Mus musculus with 12 samples.

Results

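The potassium channel family was taken as every protein-coding mouse gene whose symbol starts with Kcn, which covers the pore-forming subunits and the auxiliary subunits that bind them. There were 94 such genes among the 53465 gene rows of the count tables. The 79 with a mean of at least 1 CPM in any of the 3 cell fractions are described, by subfamily; CPM is the gene's count per 1e6 gene counts of the library, after scaling. Just inside that limit lay Kcnk16, with a highest mean of 1.08 CPM, Kcne1 (1.11 CPM) and Kcne3 (1.30 CPM), and just outside it Kcnk4 (0.935 CPM), Kcng1 (0.850 CPM) and Kcna10 (0.757 CPM). The other 12 genes outside it were Kcna7, Kcne2, Kcng2, Kcng3, Kcnj1, Kcnj4, Kcnk12, Kcnk15, Kcnk18, Kcnk6, Kcnk9 and Kcnv2.

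All cells came from the brachial and thoracic spinal cord of C57BL/6 mice at postnatal day 7 whose genotype label was Aldh1L1-GFP/Olig2-tdTomato, so every fraction carried both reporters. Aldh1l1 encodes a folate enzyme abundant in astrocytes, and Olig2 a basic helix-loop-helix factor needed to make oligodendrocytes and expressed in ventral progenitors. Papain-dissociated cells were divided by a flow sorter into the fractions eGFP, eGFP/tdTomato and tdTomato. Each fraction had 4 libraries, labelled as biological replicates 1, 2, 3 and 5. How the gates were set, how many animals went into a library, how the reporters were made and what libraries of the same number share is not in the labels. The p-values therefore measure the spread between these libraries.

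Potassium channels set the resting potential of a cell and return it after depolarisation. In astrocytes, inward rectifier and leak channels keep the membrane close to the potassium equilibrium and take up the potassium that neurons release. In the oligodendrocyte lineage, progenitors carry voltage-gated currents and mature cells rely more on inward rectifiers. Auxiliary subunits have no pore of their own and alter the surface level, gating or calcium response of the pore subunits.

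Gene counts per library were 12564767 to 36505583. Aldh1l1 itself had 406 ± 207 CPM (SD, n = 4) in eGFP, 722 ± 170 CPM in eGFP/tdTomato and 3.69 ± 1.83 CPM in tdTomato, and Olig2 had 5.76 ± 3.06, 74.4 ± 29.95 and 258 ± 80.1 CPM. The summed level of 10 astrocyte markers was 32716 to 47185 CPM in eGFP, 41524 to 48800 CPM in eGFP/tdTomato and 480.5 to 632 CPM in tdTomato, and that of 9 oligodendrocyte markers was 382 to 1255, 1464 to 3059 and 104670 to 153500 CPM. Markers of other cells also differed. The summed level of 8 ependymal markers was 218 to 471, 11.8 to 21.6 and 1.71 to 4.24 CPM in that order, and that of 15 neuronal markers was 106 to 145, 78.97 to 102 and 537 to 816 CPM, with no marker of these 4 lists at 0 in every library of a fraction. Most of the neuronal sum in tdTomato came from Elavl3 (479 ± 94.98 CPM) and Dcx (94.8 ± 28.0 CPM), while Stmn2, at 13.4, 7.80 and 1.51 CPM, and Gad2, at 16.1, 5.21 and 0.448 CPM, had their lowest means there. In eGFP replicate 1, 57.1% of reads fell outside annotated genes, against 21.2 to 42.5% in the other libraries. The 1458 olfactory and vomeronasal receptor genes, which glia are not known to use, had a median of 0.453 RPKM (CPM per 1000 exon bases) in that library and of 0 to 0.257 RPKM in the others. Over the 4 libraries, 95% of these receptor genes had a mean at or under 0.513 RPKM in eGFP, 0.383 RPKM in eGFP/tdTomato and 0.140 RPKM in tdTomato. Of the 79 Kcn genes, 26, 24 and 17 were at or under that level in these fractions, and 8 were so in every fraction: Kcnh1, Kcnh3, Kcnj15, Kcnj5, Kcnj6, Kcnk16, Kcnmb1 and Kcns2.

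The fractions with eGFP carried more potassium channel RNA per exon length than the tdTomato fraction, and a few genes made up most of it. The summed level of all 94 genes was 449 ± 133 RPKM (SD, n = 4) in eGFP, 695 ± 113 RPKM in eGFP/tdTomato and 165 ± 17.2 RPKM in tdTomato. Libraries ran from 300 to 624 RPKM in eGFP, from 576 to 825 RPKM in eGFP/tdTomato and from 145 to 187 RPKM in tdTomato, so both fractions with eGFP lay above every tdTomato library and overlapped each other. Inward rectifiers and auxiliary subunits were the largest subfamilies by summed RPKM in each fraction. Inward rectifiers held 35.2 ± 1.44%, 40.4 ± 5.30% and 37.3 ± 3.67% of the sum in eGFP, eGFP/tdTomato and tdTomato, and auxiliary subunits 40.5 ± 4.84%, 41.4 ± 4.21% and 23.1 ± 3.76%. Shares of the sum were larger in tdTomato for the 2-pore channels, at 12.3 ± 1.68% against 4.91 ± 1.85% in eGFP and 3.46 ± 0.21% in eGFP/tdTomato, and for KCNQ channels, at 4.65 ± 0.639% against 0.804 ± 0.487% and 0.677 ± 0.159%. So was that of the voltage-gated channels related to Shaker, at 17.7 ± 1.72% against 10.4 ± 2.30% and 8.85 ± 0.476%. The summed 2-pore level itself was 20.4 ± 6.08, 23.8 ± 2.56 and 20.2 ± 3.06 RPKM in eGFP, eGFP/tdTomato and tdTomato. Its larger share in tdTomato thus went with the smaller sum of all genes there. The summed level of the Shaker-related channels had its lowest mean in tdTomato, at 44.8 ± 8.48, 61.5 ± 11.7 and 29.4 ± 5.54 RPKM in that order. That of the KCNQ channels had its highest mean there, at 3.22 ± 1.16, 4.71 ± 1.31 and 7.70 ± 1.52 RPKM. These shares were not tested. In sorted bulk RNA, fewer cells of a type and less RNA per cell cannot be told apart.

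**Figure D1:**
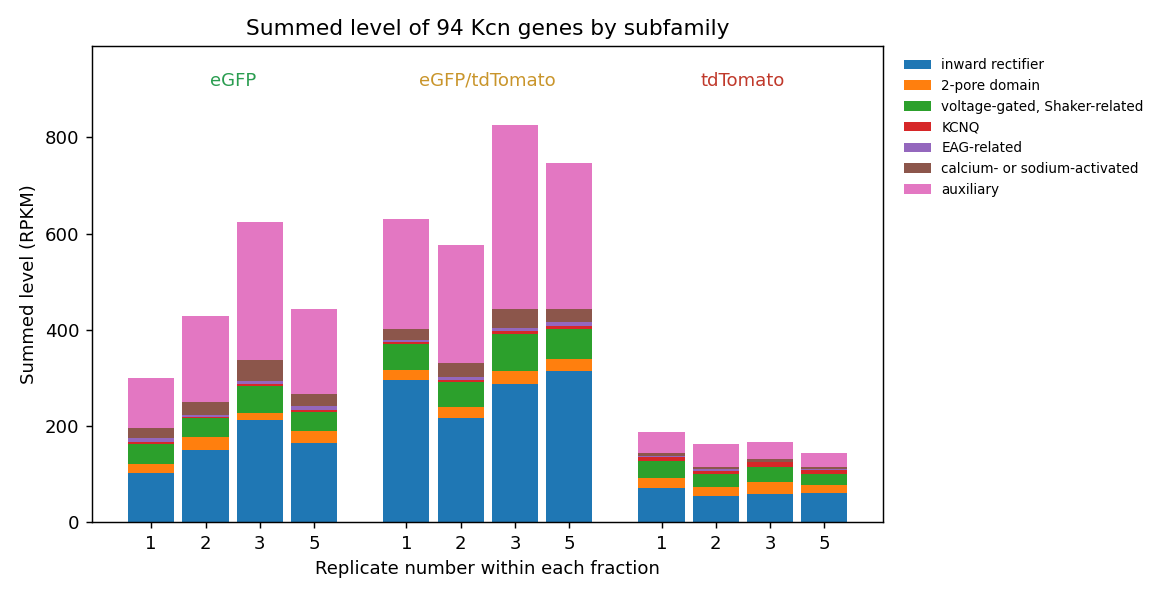
Summed level of the 94 Kcn genes in each library, in RPKM, stacked by subfamily, with libraries ordered by fraction and replicate number. The tdTomato libraries reach 145 to 187 RPKM and the libraries of the other fractions 300 to 825 RPKM.

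By RPKM, the 5 most abundant Kcn genes of the eGFP fraction were Kcne1l (130), Kcnj16 (89.7), Kcnj10 (60.7), Kcnip3 (35.4) and Kcnd2 (15.7). The same 5 genes led in eGFP/tdTomato, as Kcnj16 (151), Kcne1l (140), Kcnip3 (129), Kcnj10 (123) and Kcnd2 (25.4). In tdTomato the order by RPKM was Kcnj10 (51.4), Kcnip3 (20.5), Kcna6 (8.72), Kcnk13 (8.58) and Kcne4 (8.499).

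The fractions were compared in pairs within a single edgeR fit of all genes, and a gene was called where its adjusted p was under 0.05. Between eGFP/tdTomato and eGFP, 3 of the 79 members were called (3.80%), against 2.49% of all genes tested and 4.25% of the 16252 protein-coding genes with a mean of at least 1 CPM in any fraction. Kcnip3 and Kcnip1 were higher in eGFP/tdTomato, where 0.814% of all 29361 genes tested and 1.42% of the protein-coding genes were higher, and Kcnmb4 was lower, where 1.67% and 2.82% were. The median log2 fold change of the members was -0.14, against -0.02 over all genes and 0.05 over those protein-coding genes. The median of the members was 0.08 in limma-voom. Without scaling beyond the library total, 2 members were called higher and 3 lower. These alternatives moved the median of all genes too, to 0.12 in limma-voom and -0.27 without scaling.

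Against the tdTomato fraction many more members differed. Between eGFP/tdTomato and tdTomato, 30 members were higher in eGFP/tdTomato (38.0%) and 11 lower (13.9%), where 16.8% of all genes tested were higher and 12.4% lower, 29.2% in all. Among the protein-coding genes of that level, 23.2% were higher and 19.5% lower, 42.7% in all, against 51.9% of the members. Between eGFP and tdTomato, 27 members were higher in eGFP (34.2%) and 11 lower (13.9%), where 20.4% of all genes were higher and 14.9% lower, 35.2% in all. Of the protein-coding genes, 26.9% were higher and 23.8% lower, 50.7% in all, against 48.1% of the members. The median log2 fold change of the members was 1.02 in the first of these comparisons and 1.05 in the second. Over all genes it was 0.70 and 0.79, and over the protein-coding genes of that level 0.236 and 0.195. The medians over all genes moved with the scaling and the filter on low counts, from 0.12 to 0.87 and from 0.18 to 1.15. Those of the members fell to 0.38 and 0.59 with a covariate for reads outside genes, where those of all genes were 0.26 and 0.10. Without eGFP replicate 1 the second median of the members was 0.65, against 0.28 over all genes. The comparisons share libraries, since each fraction stands in 2 of them.

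**Figure D2:**
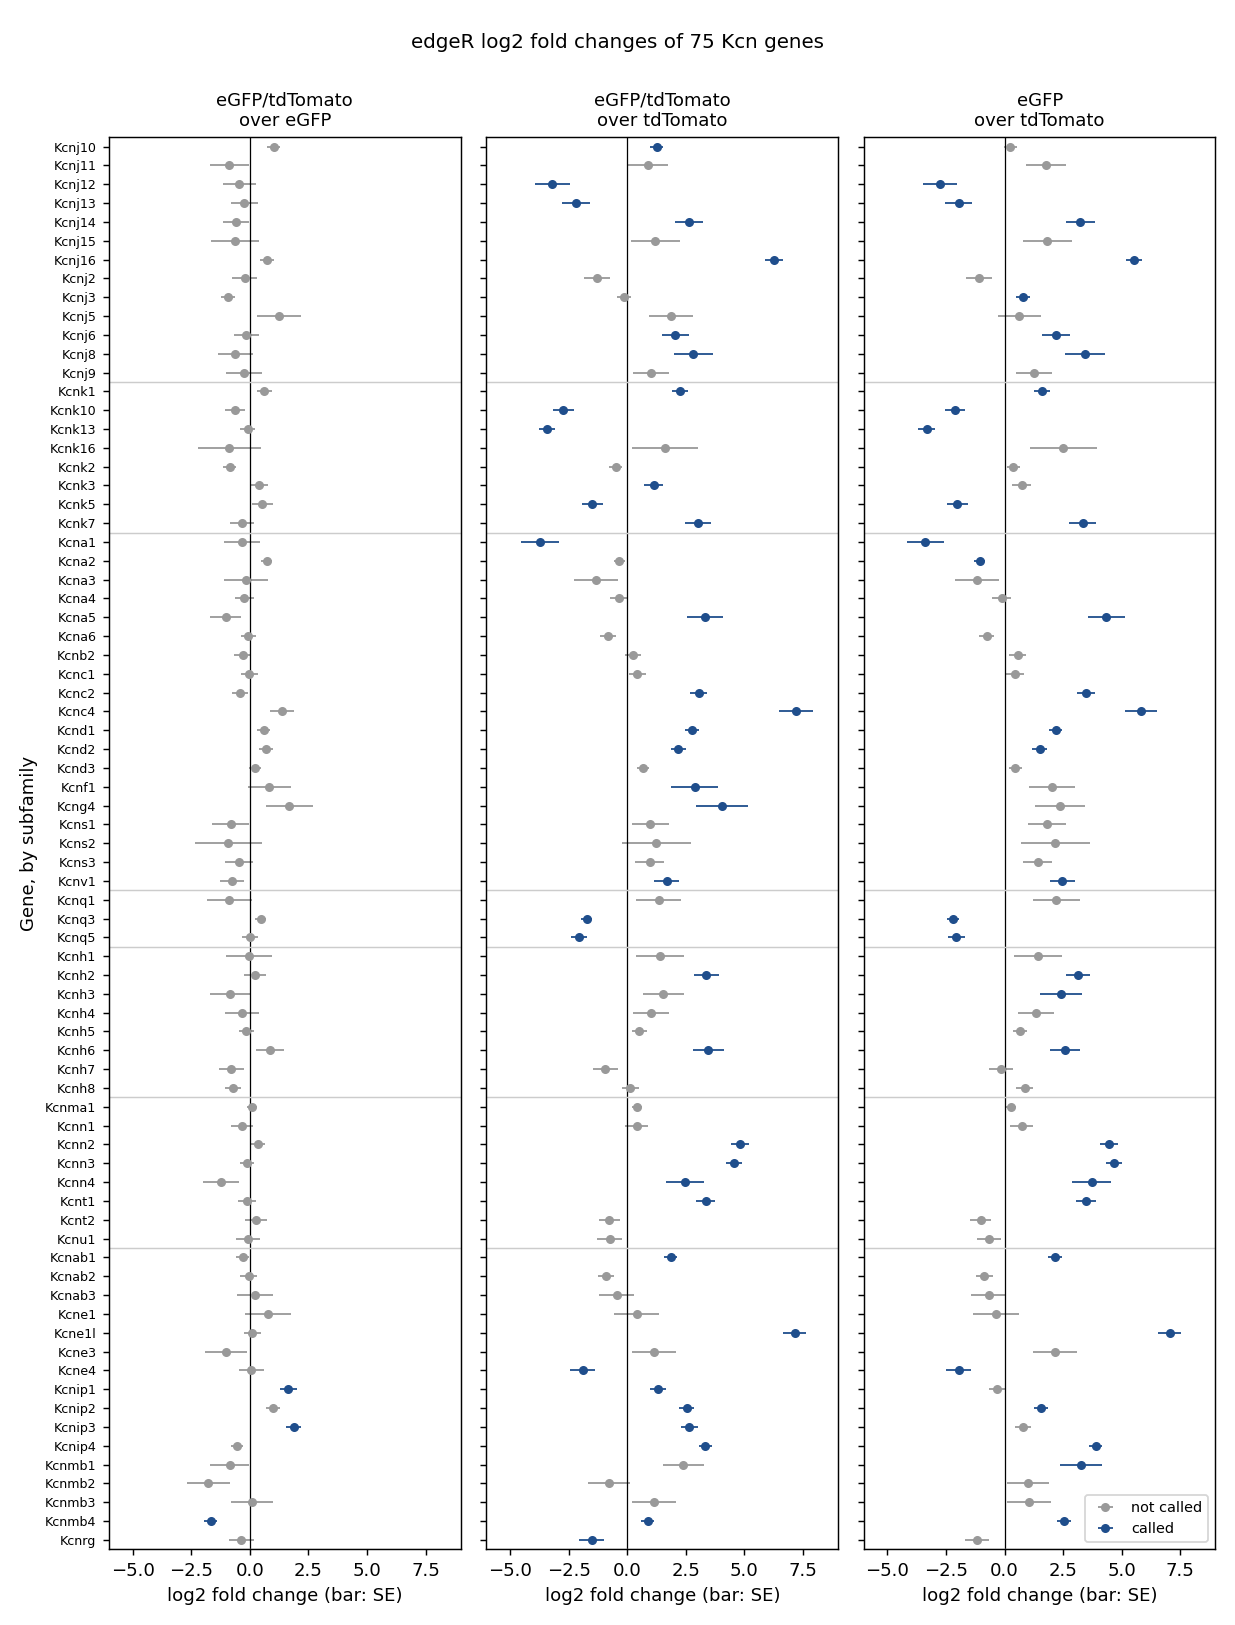
Log2 fold change of 75 of the 79 Kcn genes in the 3 comparisons, ordered by subfamily, with bars of 1 SE from edgeR and called genes in blue. In the comparison of eGFP/tdTomato with eGFP, 3 genes are blue, and 39 and 36 of those drawn are in the comparisons with tdTomato.

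Inward rectifiers pass potassium into the cell more easily than out of it. Kcnj10 (Kir4.1, ENSMUSG00000044708, chromosome 1, 172341210 to 172374085, plus strand, GRCm38) is the main astrocyte channel of the group, and Kcnj16 (Kir5.1, ENSMUSG00000051497, chromosome 11, 110968033 to 111027968, plus strand) forms mixed channels with it. Their proteins assemble together, and their levels differed between fractions in separate ways. The RefSeq promoter windows of both genes (GRCm38.p6, 250 bases before to 50 after the transcript start, 5′ to 3′ on the gene's strand) are shown because these were the most abundant pore subunits of both fractions with eGFP. Capitals mark the E-box CANNTG, the letters that basic helix-loop-helix factors such as Olig2 are known to bind. The search covered both strands, on which these letters read alike. The Kcnj10 window is chr1:172340960-172341259, without that motif, and the Kcnj16 window is chr11:110967783-110968082, with CAGCTG at position -149 from the start.
Kcnj10: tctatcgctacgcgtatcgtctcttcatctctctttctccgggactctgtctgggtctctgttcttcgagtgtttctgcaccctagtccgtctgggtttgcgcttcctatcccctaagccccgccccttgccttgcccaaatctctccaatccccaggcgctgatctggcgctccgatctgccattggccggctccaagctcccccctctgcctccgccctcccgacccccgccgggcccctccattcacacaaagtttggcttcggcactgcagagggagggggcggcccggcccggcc
Kcnj16: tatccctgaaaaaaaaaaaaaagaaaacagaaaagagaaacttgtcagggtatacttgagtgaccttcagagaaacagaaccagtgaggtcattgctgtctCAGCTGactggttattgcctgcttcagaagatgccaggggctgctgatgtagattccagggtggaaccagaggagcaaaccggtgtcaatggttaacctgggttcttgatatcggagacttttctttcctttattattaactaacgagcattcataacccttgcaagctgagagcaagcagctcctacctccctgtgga
Kcnj10 had 1 window and Kcnj16 had 4, of which the 1 nearest the annotated gene start is printed. Of the 79 members, 59 had such a window, and the window nearest the annotated gene start held an E-box in 42 of them. Of all 32851 windows in the table, 72.3% held one, and 16.3% held CAGCTG.

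Kcnj10 was at 183, 299, 466 and 365 CPM in eGFP replicates 1, 2, 3 and 5, at 563, 477, 628 and 985 CPM in eGFP/tdTomato, and at 328, 230, 271 and 282 CPM in tdTomato. Every eGFP/tdTomato library was above every library of the other fractions, which overlapped each other. It was higher in eGFP/tdTomato than in tdTomato, by a log2 fold change of 1.26 ± 0.28 (SE), 2.39-fold, with an edgeR adjusted p of 0.00248. Against eGFP the log2 fold change was 1.02 ± 0.28 (2.02-fold) with an adjusted p of 0.0749, and adjusted p ran from 0.00591 to 0.519 over 27 alternatives, 8 of which called it. Between eGFP and tdTomato it was 0.24 ± 0.27 (adjusted p = 0.486).

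Kcnj16 was at 235, 345, 476 and 356 CPM in eGFP, at 737, 480, 656 and 499 CPM in eGFP/tdTomato, and at 8.24, 12.7, 4.65 and 5.13 CPM in tdTomato. No tdTomato library came near those with eGFP, and the eGFP/tdTomato libraries all lay above the eGFP libraries. Kcnj16 was 77.1-fold higher in eGFP/tdTomato than in tdTomato (log2 6.27 ± 0.37, adjusted p = 4.89e-09) and 45.9-fold higher in eGFP than in tdTomato (adjusted p = 1.12e-08). Between the fractions with eGFP its log2 fold change was 0.75 ± 0.30 with an adjusted p of 0.334. Per exon length, Kcnj16 stood at 1.52 ± 0.19 times Kcnj10 in eGFP and at 1.33 ± 0.46 times in eGFP/tdTomato, but at 0.0396 ± 0.024 times in tdTomato. The tdTomato fraction thus held Kcnj10 RNA with little Kcnj16 RNA beside it.

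Kcnj12 (Kir2.2), a strong inward rectifier, ran the other way. It was at 10.9, 6.86, 7.40 and 6.71 CPM in tdTomato, at 2.17, 1.48, 0 and 1.13 CPM in eGFP, and at 0.989, 1.04, 0.414 and 1.04 CPM in eGFP/tdTomato, where the 0 allows up to 0.113 CPM (3 counts, counting error only). All tdTomato libraries were above all others, and Kcnj12 was lower in eGFP/tdTomato (9.12-fold, adjusted p = 0.0038) and in eGFP (6.72-fold, adjusted p = 0.00815). Kcnj13 (Kir7.1) was also higher in tdTomato, at 2.95 ± 1.29 CPM against 0.756 ± 0.575 in eGFP and 0.644 ± 0.222 in eGFP/tdTomato, but 49.1% of its exon bases lie in Gigyf2 and the strand of the counting is not stated.

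Among the other inward rectifiers, Kcnj14, Kcnj8 (Kir6.1, a pore of channels gated by ATP) and Kcnj6 (a channel opened by G proteins) were called higher in both fractions with eGFP than in tdTomato, all at low levels. Kcnj6, at 0.399, 0.362 and 0.0863 RPKM in eGFP, eGFP/tdTomato and tdTomato, was not above the receptor genes in any fraction. Kcnj14 had a mean of 2.97 ± 0.439 CPM in eGFP, 1.97 ± 0.641 in eGFP/tdTomato and 0.313 ± 0.241 in tdTomato, and Kcnj8 had 2.75 ± 0.601, 1.80 ± 0.859 and 0.245 ± 0.280 CPM. Kcnj8 is also known from pericytes. Of the mural markers, Rgs5 had 9.41 ± 3.38, 6.40 ± 1.26 and 1.44 ± 1.21 CPM and Vtn had 11.996 ± 5.69, 2.04 ± 0.715 and 0.695 ± 0.502 CPM in these fractions, while Cspg4 had 7.00 ± 1.83, 12.7 ± 0.592 and 61.8 ± 15.9 CPM. The summed level of all 8 was 79.4 to 183, 108 to 228 and 43.9 to 78.8 CPM, with Notch3 at 63.2, 122 and 0.855 CPM and Cspg4 as its main parts, and the part of mural cells in the Kcnj8 difference was not tested. Kcnj3, another subunit opened by G proteins, was called higher in eGFP than in tdTomato with an adjusted p of 0.0490, and 20 of 27 alternatives lost that call; 31.1% of its exon bases lie in another gene, Gm26794. Kcnj2, Kcnj5, Kcnj9, Kcnj11 and Kcnj15 had highest means from 1.67 to 3.83 CPM and were not called in any comparison. In all, 5 of 13 described inward rectifiers were higher in eGFP/tdTomato than in tdTomato and 2 lower, with the same numbers for eGFP against tdTomato. Among the protein-coding genes of at least 1 CPM, 23.2% were higher and 19.5% lower in the first comparison, and 26.9% and 23.8% in the second.

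**Figure D3:**
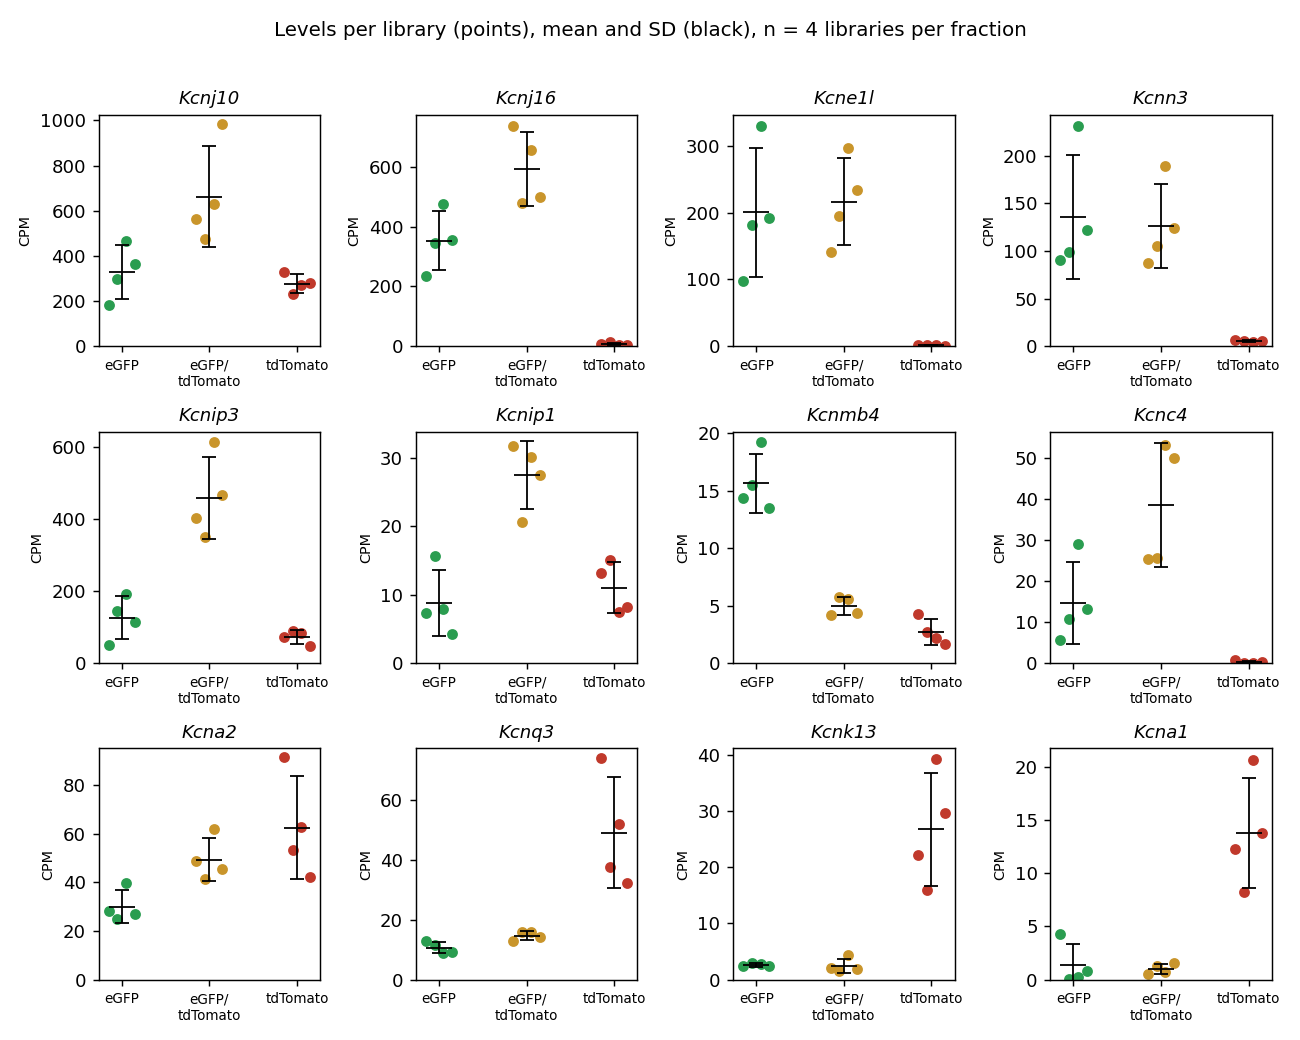
Level in CPM of 12 Kcn genes in each library (points), with the mean and SD (black) of the 4 libraries of each fraction, on linear axes from 0. Kcnj10, Kcnip3 and Kcnip1 are highest in eGFP/tdTomato, Kcnmb4 is highest in eGFP, and Kcnq3, Kcnk13 and Kcna1 are highest in tdTomato.

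The 2-pore channels give the steady leak current of many cells. Kcnk1 (TWIK-1), which astrocytes are known to carry, was at 16.2, 33.4, 13.1 and 32.2 CPM in eGFP, at 34.1, 29.1, 45.5 and 38.1 CPM in eGFP/tdTomato, and at 7.04, 10.8, 9.07 and 4.02 CPM in tdTomato. The tdTomato libraries lay below all others, and Kcnk1 was 4.74-fold higher in eGFP/tdTomato (adjusted p = 0.000101) and 3.06-fold higher in eGFP (adjusted p = 0.00143). Kcnk2 (TREK-1), opened by stretch and lipids, was at 16.7, 33.5, 19.2 and 19.4 CPM in eGFP, at 11.5, 13.3, 9.94 and 14.4 CPM in eGFP/tdTomato, and at 21.6, 20.6, 16.9 and 9.22 CPM in tdTomato. Its eGFP libraries lay above the eGFP/tdTomato libraries, with a log2 fold change of -0.86 ± 0.28 and an adjusted p of 0.174 in edgeR.

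Kcnk13 (THIK-1), a halothane-inhibited leak channel also known from microglia, was a tdTomato gene. It was at 22.1, 16.0, 39.2 and 29.6 CPM in tdTomato, at 2.40, 3.05, 2.79 and 2.41 CPM in eGFP, and at 2.01, 1.63, 4.33 and 2.00 CPM in eGFP/tdTomato. The tdTomato libraries were all higher, by 10.7-fold over eGFP/tdTomato (adjusted p = 1.57e-06) and 10.02-fold over eGFP (adjusted p = 1.88e-06). The summed level of 10 markers of microglia and macrophages was 18.9 to 41.2 CPM in tdTomato, 70.2 to 438 CPM in eGFP and 32.6 to 41.2 CPM in eGFP/tdTomato, and the part of these cells in the Kcnk13 levels was not tested. Kcnk10 (TREK-2) was also higher in tdTomato, at 15.7 ± 6.00 CPM against 3.66 ± 1.84 in eGFP and 2.37 ± 0.767 in eGFP/tdTomato, as was Kcnk5 (TASK-2), at 5.52 ± 1.61 against 1.37 ± 0.654 and 1.98 ± 0.743 CPM. Kcnk7 was higher in both fractions with eGFP, at 2.14 ± 0.530 and 1.71 ± 0.494 CPM against 0.210 ± 0.0819 CPM, Kcnk3 (TASK-1) was called in eGFP/tdTomato over tdTomato (2.18-fold, adjusted p = 0.0459, lost in 22 of 27 alternatives), and Kcnk16 was not called.

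The voltage-gated channels related to Shaker open on depolarisation. Kcnd2 (Kv4.2), a pore of the fast inactivating A-type current, was the most abundant of them by RPKM in both fractions with eGFP. It was at 56.9, 91.1, 118 and 57.3 CPM in eGFP, at 127, 110, 165 and 121 CPM in eGFP/tdTomato, and at 42.1, 34.7, 23.99 and 14.2 CPM in tdTomato. The tdTomato libraries lay below all others, while those of the other fractions overlapped. Kcnd2 was 4.55-fold higher in eGFP/tdTomato (adjusted p = 6.67e-05) and 2.81-fold higher in eGFP (adjusted p = 0.00149) than in tdTomato. Kcnd1 (Kv4.1) was higher in both as well, at 9.20 ± 2.76 and 13.8 ± 3.75 CPM against 2.02 ± 0.258 CPM, and Kcnd3 (Kv4.3) had 16.6 ± 2.65, 19.3 ± 4.68 and 12.1 ± 4.31 CPM in eGFP, eGFP/tdTomato and tdTomato with no call.

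Kcnc4 (Kv3.4), another fast inactivating pore, was higher in both fractions with eGFP than in tdTomato. It was at 5.68, 10.7, 28.9 and 13.2 CPM in eGFP, at 25.3, 25.5, 53.2 and 50.04 CPM in eGFP/tdTomato, and at 0.668, 0.0301, 0.0744 and 0.332 CPM in tdTomato, where it had 27 counts over the 4 libraries and a mean of 0.0753 RPKM, under the 0.140 RPKM that 95% of the receptor genes did not exceed. The fractions with eGFP overlapped through eGFP replicate 3. Kcnc4 was 147-fold higher in eGFP/tdTomato (adjusted p = 9.61e-07) and 56.2-fold higher in eGFP (adjusted p = 6.18e-06) than in tdTomato, with log2 fold changes of 6.70 to 8.06 and 5.24 to 6.66 when 1 library was left out. Its log2 fold change between the fractions with eGFP was 1.39 ± 0.51 (adjusted p = 0.257). Kcnc2 (Kv3.2) was higher in both, at 17.7 ± 5.02 and 13.2 ± 3.95 CPM against 1.58 ± 0.685 CPM. Kcnc1 was not called.

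The Kcna genes, most of which encode delayed rectifiers known from axons and oligodendrocyte progenitors, were higher in tdTomato or not called, except Kcna5. Kcna1 (Kv1.1) was at 12.2, 8.24, 20.6 and 13.8 CPM in tdTomato, at 4.29, 0.0924, 0.263 and 0.792 CPM in eGFP, and at 0.546, 1.32, 0.753 and 1.56 CPM in eGFP/tdTomato. It was 13.1-fold lower in eGFP/tdTomato (adjusted p = 0.00207) and 10.4-fold lower in eGFP (adjusted p = 0.00343), with no overlap, although eGFP replicate 1 stood above its group. Without that library the log2 fold change of eGFP against tdTomato was -5.28, where it was -3.37 with it. Kcna6 (Kv1.6) was at 25.8, 18.1, 49.1 and 28.6 CPM in eGFP, at 16.3, 25.2, 41.3 and 34.3 CPM in eGFP/tdTomato, and at 58.0, 32.9, 71.2 and 45.3 CPM in tdTomato. Its fractions overlapped and it was not called (adjusted p = 0.0784 for eGFP/tdTomato and 0.0853 for eGFP against tdTomato), though 14 of 27 alternatives called it lower in eGFP/tdTomato than in tdTomato and 10 of 27 lower in eGFP. Of its exon bases, 39.6% lie in Gm26673.

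Kcna2 (Kv1.2) had means of 30.02 ± 6.65, 49.4 ± 8.87 and 62.5 ± 21.2 CPM in eGFP, eGFP/tdTomato and tdTomato, and was 2.08-fold lower in eGFP than in tdTomato (adjusted p = 0.0026). Kcna5 (Kv1.5) was higher in both fractions with eGFP, at 2.67 ± 0.336 and 1.31 ± 0.382 CPM against 0.123 ± 0.144 CPM, which was 15 counts over the 4 tdTomato libraries. Kcna3 and Kcna4 were not called. Of the 15 neuronal markers, 4 were called higher in tdTomato than in eGFP and 3 lower, where 23.8% and 26.9% of the protein-coding genes of at least 1 CPM were. The part of neurons in the levels of Kcna1 and Kcna2 was not tested.

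The silent subunits Kcnf1, Kcng4 and Kcnv1, which form no channel alone and modify other voltage-gated pores, were called higher in eGFP/tdTomato than in tdTomato, Kcnf1 with an adjusted p of 0.0433 that 19 of 27 alternatives lost. Kcnv1 was also higher in eGFP, at 8.68 ± 1.58 CPM against 1.55 ± 1.21 CPM in tdTomato. Kcnb2, Kcns1, Kcns2 and Kcns3 were not called. Over the subfamily, 9 of 21 described members were higher and 2 lower in eGFP/tdTomato than in tdTomato, and 7 were higher and 3 lower in eGFP. For the protein-coding genes of at least 1 CPM these shares were 23.2% and 19.5% in eGFP/tdTomato, and 26.9% and 23.8% in eGFP.

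**Figure D4:**
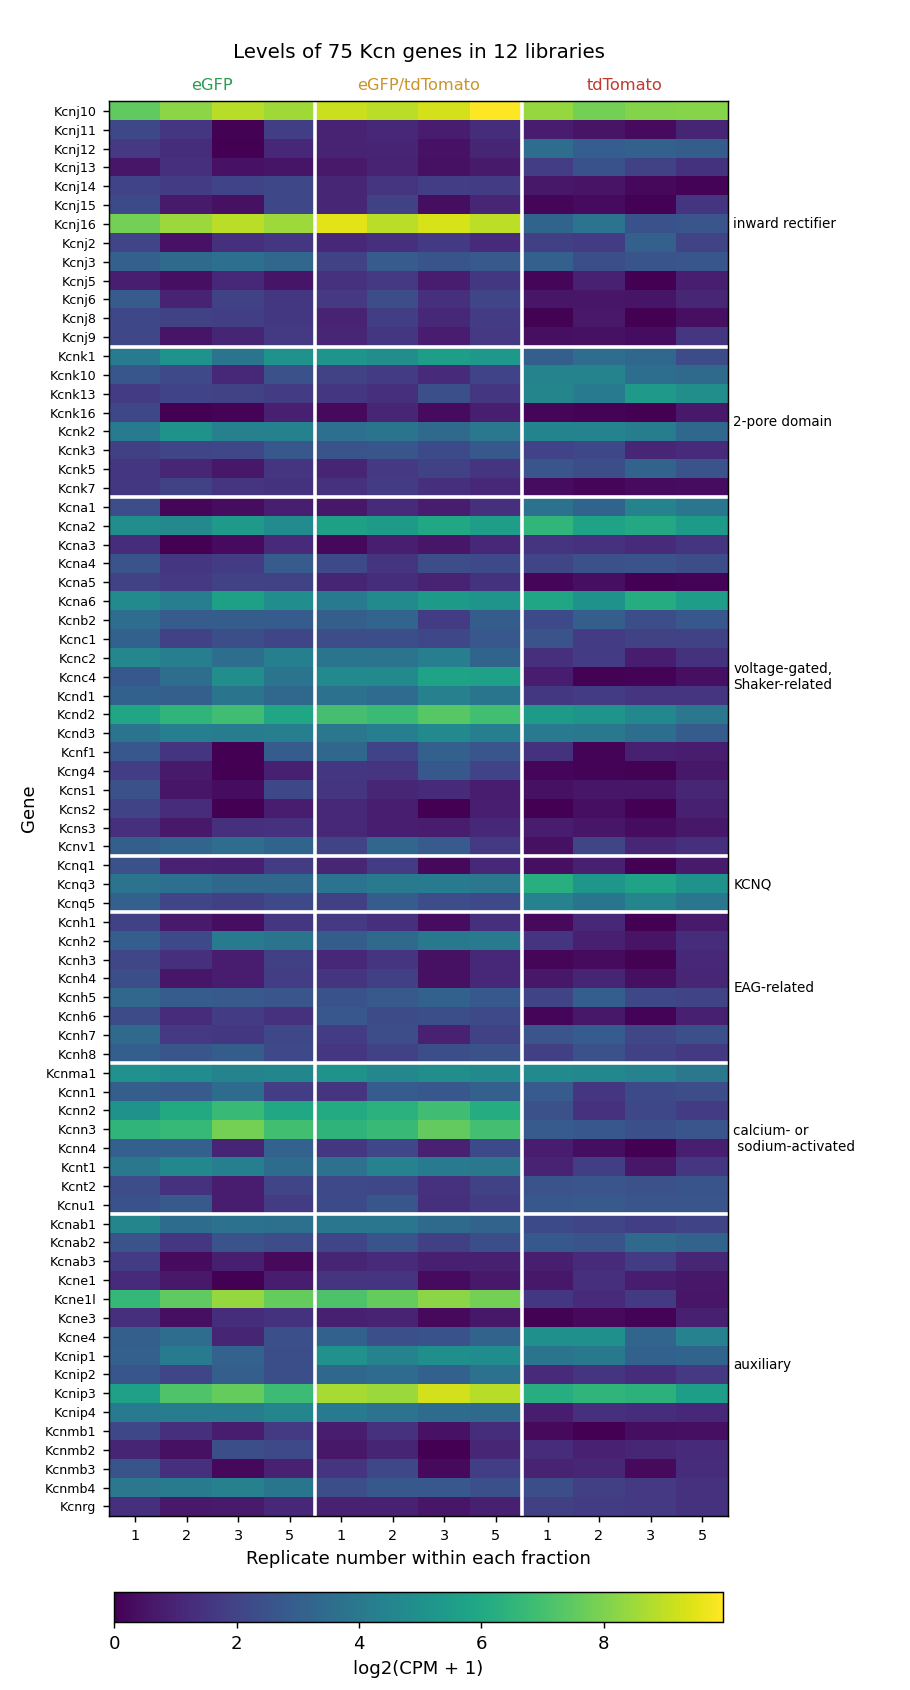
Level of 75 of the 79 Kcn genes as log2(CPM + 1) in the 12 libraries, with rows grouped by subfamily and columns by fraction. The brightest rows are Kcnj10, Kcnj16, Kcne1l, Kcnip3, Kcnd2 and Kcnn3; Kcnj16, Kcne1l and Kcnn3 turn dark in tdTomato.

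Among auxiliary subunits, the Kcnip genes encode calcium-binding proteins (KChIPs) that attach to Kv4 pores such as Kcnd2, raise their surface level and slow their inactivation. Kcnip3 (KChIP3, also known as DREAM or calsenilin, ENSMUSG00000079056, chromosome 2, 127456498 to 127522094, minus strand) and Kcnip1 (KChIP1, ENSMUSG00000053519, chromosome 11, 33629339 to 33993152, minus strand) were the only members called higher in eGFP/tdTomato than in eGFP. Their RefSeq promoter windows, from the minus strand, are shown for that reason, with E-boxes in capitals as above. The Kcnip3 window is chr2:127522045-127522344, with CAGATG at -228, CAGCTG at -140 and CAAGTG at -80 from the start, and the Kcnip1 window is chr11:33993144-33993443, with CAGCTG at -236 and CAAGTG at -125.
Kcnip3: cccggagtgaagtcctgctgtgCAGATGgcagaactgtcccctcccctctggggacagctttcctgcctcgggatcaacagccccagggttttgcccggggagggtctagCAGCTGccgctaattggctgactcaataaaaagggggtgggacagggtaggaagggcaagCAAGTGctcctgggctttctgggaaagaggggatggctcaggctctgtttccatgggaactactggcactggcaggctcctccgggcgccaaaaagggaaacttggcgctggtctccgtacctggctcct
Kcnip1: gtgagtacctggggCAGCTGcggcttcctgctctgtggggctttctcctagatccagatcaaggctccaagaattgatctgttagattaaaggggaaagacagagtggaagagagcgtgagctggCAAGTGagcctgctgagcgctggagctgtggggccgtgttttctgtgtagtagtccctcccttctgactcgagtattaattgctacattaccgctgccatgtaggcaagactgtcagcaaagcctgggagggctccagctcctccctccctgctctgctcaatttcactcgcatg
The Kcnip1 window starts its transcript 41 bases from the annotated gene start. Kcnip3 and Kcnip1 had 3 windows each, and the 1 nearest the annotated gene start is printed. Kcnmb4, the member called lower in eGFP/tdTomato than in eGFP, had 1 window, which starts its transcript 355 bases from the annotated gene start. That window held no E-box, where 72.3% of all 32851 windows held one. Whether E-boxes go with the calls was not tested. The letters are a description of these windows and no binding was measured.

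Kcnip3 was at 404, 350, 615 and 468 CPM in eGFP/tdTomato, at 50.7, 145, 193 and 113 CPM in eGFP, and at 71.9, 88.9, 82.9 and 46.9 CPM in tdTomato. Every eGFP/tdTomato library was above every library of the other fractions, which overlapped. Kcnip3 was 3.65-fold higher in eGFP/tdTomato than in eGFP (log2 1.87 ± 0.34, adjusted p = 0.0053) and 6.32-fold higher than in tdTomato (log2 2.66 ± 0.35, adjusted p = 2.01e-05). Between eGFP and tdTomato its log2 fold change was 0.79 ± 0.33 (adjusted p = 0.0745), and 6 of 27 alternatives called it. Per exon length, Kcnip3 stood at 5.06 ± 0.51 times Kcnd2 in eGFP/tdTomato, at 2.21 ± 0.66 times in eGFP and at 4.002 ± 1.16 times in tdTomato.

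Kcnip1 was at 31.7, 20.6, 30.01 and 27.5 CPM in eGFP/tdTomato, at 7.25, 15.6, 7.83 and 4.30 CPM in eGFP, and at 13.1, 15.1, 7.51 and 8.19 CPM in tdTomato. The eGFP/tdTomato libraries again lay above all others. Kcnip1 was 3.15-fold higher than in eGFP (log2 1.65 ± 0.34, adjusted p = 0.015) and 2.50-fold higher than in tdTomato (adjusted p = 0.00736). The call against eGFP was lost without eGFP replicate 1 (adjusted p = 0.063), eGFP replicate 5 (0.0882) or eGFP/tdTomato replicate 3 (0.07), and the call against tdTomato without eGFP/tdTomato replicate 3 (adjusted p = 0.0805). Without all 3 libraries of replicate 1, 3 or 5, the call against eGFP was also lost (edgeR adjusted p = 0.139, 0.0622 and 0.1315). The call against tdTomato was lost without all 3 libraries of replicate 3 (log2 0.79, edgeR adjusted p = 0.153). Of the marker lists, 5 of 9 oligodendrocyte, 2 of 7 progenitor, 1 of 10 astrocyte and 1 of 15 neuronal markers were called higher in eGFP/tdTomato than in eGFP, against 0.814% of all genes tested. Their part in the Kcnip3 and Kcnip1 differences was not tested.

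Kcnip2 had means of 4.92 ± 1.61, 9.73 ± 2.03 and 1.67 ± 0.362 CPM in eGFP, eGFP/tdTomato and tdTomato, was higher in both fractions with eGFP than in tdTomato, and had an adjusted p of 0.126 between them. Kcnip4 was also higher in both than in tdTomato, at 18.1 ± 2.65 and 12.4 ± 3.04 CPM against 1.21 ± 0.343 CPM. Of the 4 KChIP genes, all were thus higher in eGFP/tdTomato than in tdTomato, and Kcnip2 and Kcnip4 were called in eGFP over tdTomato. In these comparisons 23.2% and 26.9% of the protein-coding genes of at least 1 CPM were higher.

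Kcnmb4, the beta4 subunit of large-conductance calcium-activated (BK) channels, which slows their gating, was the 1 member called lower in eGFP/tdTomato than in eGFP (ENSMUSG00000054934, chromosome 10, 116417861 to 116473878, minus strand). It was at 14.4, 15.5, 19.3 and 13.5 CPM in eGFP, at 4.19, 5.74, 5.54 and 4.37 CPM in eGFP/tdTomato, and at 4.23, 2.74, 2.16 and 1.70 CPM in tdTomato. The eGFP libraries were above all others, and the other fractions overlapped by 1 library. The log2 fold change of eGFP/tdTomato against eGFP was -1.66 ± 0.28, 3.15-fold lower, with an edgeR adjusted p of 0.0034, and all 27 alternatives called it. It was 5.79-fold higher in eGFP than in tdTomato (adjusted p = 4.72e-06) and 1.84-fold higher in eGFP/tdTomato than in tdTomato (adjusted p = 0.0276), the last of which 13 of 27 alternatives lost. Of its exon bases, 31.5% lie in the antisense genes Kcnmb4os1 and Kcnmb4os2. Without strand, reads in these shared bases cannot be assigned to 1 gene, and the strand of the counting is not stated. All 8 ependymal markers, 4 of 5 fibroblast markers, 4 of 10 microglia and macrophage markers and 1 of 8 mural markers were also lower in eGFP/tdTomato than in eGFP, where 1.67% of all genes were, and their part in the Kcnmb4 difference was not tested.

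The pore that Kcnmb4 joins, Kcnma1 (the BK channel), was at 31.6, 27.8, 20.8 and 22.6 CPM in eGFP, at 33.0, 23.3, 29.5 and 25.3 CPM in eGFP/tdTomato, and at 25.3, 23.9, 20.1 and 14.6 CPM in tdTomato. Its fractions overlapped and it was not called in any comparison, with log2 fold changes of 0.11 ± 0.21, 0.41 ± 0.21 and 0.29 ± 0.21. Of the other beta subunits, Kcnmb1 was called higher in eGFP than in tdTomato, at 1.96 ± 1.17 CPM against 0.202 ± 0.150 CPM, but was not above the receptor genes in any fraction, and it lies within Kcnip1 on the opposite strand. Kcnmb2 and Kcnmb3 were not called.

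Kcne1l (also named Kcne5), a single-span subunit that inhibits KCNQ1 channels and lies on chromosome X, gave 1 of the largest contrasts of the family. It was at 97.98, 181, 330 and 192 CPM in eGFP, at 141, 195, 296 and 233 CPM in eGFP/tdTomato, and at 2.05, 1.35, 2.19 and 0.517 CPM in tdTomato. Libraries of the fractions with eGFP overlapped and stood far above the rest. Kcne1l was 142-fold higher in eGFP/tdTomato (log2 7.15 ± 0.49, adjusted p = 2.23e-08) and 131-fold higher in eGFP (log2 7.04 ± 0.49, adjusted p = 2.25e-08) than in tdTomato. Its known partner Kcnq1 was at 2.14 ± 1.71, 1.17 ± 0.868 and 0.455 ± 0.375 CPM in eGFP, eGFP/tdTomato and tdTomato.

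Kcne4, a single-span subunit that inhibits several Kv channels, ran in the opposite direction. It was at 31.2, 30.5, 8.59 and 19.997 CPM in tdTomato, at 7.08, 10.8, 1.02 and 4.45 CPM in eGFP, and at 7.53, 4.35, 4.63 and 7.89 CPM in eGFP/tdTomato. The tdTomato libraries did not overlap those of eGFP/tdTomato but overlapped those of eGFP, and Kcne4 was 3.70-fold lower in eGFP/tdTomato (adjusted p = 0.0139) and 3.88-fold lower in eGFP (adjusted p = 0.00999). Kcnab1, a beta subunit of Kv1 channels, was higher in both fractions with eGFP, at 14.05 ± 5.34 and 11.4 ± 3.01 CPM against 3.15 ± 0.415 CPM. Kcnrg, which restrains Kv1 assembly, was lower in eGFP/tdTomato than in tdTomato, at 0.786 ± 0.173 CPM against 2.26 ± 0.433 CPM (adjusted p = 0.0366, lost in 11 of 27 alternatives). Kcnab2, Kcnab3, Kcne1 and Kcne3 were not called.

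The KCNQ channels carry the slow M-type current that damps firing. Kcnq3 (Kv7.3) was at 74.1, 37.8, 52.2 and 32.5 CPM in tdTomato, at 12.8, 11.5, 9.07 and 9.32 CPM in eGFP, and at 12.9, 15.8, 16.0 and 14.4 CPM in eGFP/tdTomato. Kcnq5 (Kv7.5) was at 20.1, 13.8, 21.9 and 13.8 CPM in tdTomato, at 7.36, 3.19, 2.67 and 3.58 CPM in eGFP, and at 2.69, 6.46, 4.10 and 3.56 CPM in eGFP/tdTomato. For both genes all tdTomato libraries were highest. Kcnq3 was 3.32-fold lower in eGFP/tdTomato (adjusted p = 4.34e-05) and 4.61-fold lower in eGFP (adjusted p = 3.92e-06), and Kcnq5 was 4.14-fold (adjusted p = 0.000312) and 4.16-fold lower (adjusted p = 0.000278). Kcnq1 was not called. Over the subfamily, 2 of 5 genes were higher in tdTomato and none lower. Of the protein-coding genes of at least 1 CPM, 19.5% were higher in tdTomato than in eGFP/tdTomato, and 23.8% higher than in eGFP.

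The EAG-related channels include the ERG pores of slow repolarising currents. Kcnh2 (ERG1) was at 6.86, 3.60, 16.7 and 13.2 CPM in eGFP, at 6.68, 9.85, 15.4 and 15.9 CPM in eGFP/tdTomato, and at 1.87, 0.812, 0.446 and 1.48 CPM in tdTomato. The tdTomato libraries were all lowest, and Kcnh2 was 10.4-fold higher in eGFP/tdTomato (adjusted p = 0.000113) and 8.82-fold higher in eGFP (adjusted p = 0.000189). Kcnh6 (ERG2) was also higher in both, at 2.33 ± 1.12 and 4.28 ± 0.822 CPM against 0.379 ± 0.361 CPM. Kcnh5 (EAG2) was at 8.81, 6.42, 5.87 and 5.21 CPM in eGFP, at 4.64, 5.94, 7.42 and 5.70 CPM in eGFP/tdTomato, and at 3.12, 6.89, 3.46 and 3.10 CPM in tdTomato. Kcnh8 was at 6.74, 5.40, 6.66 and 3.62 CPM in eGFP, at 1.94, 2.91, 4.29 and 4.52 CPM in eGFP/tdTomato, and at 2.72, 4.51, 2.94 and 2.21 CPM in tdTomato. Both overlapped across fractions and were not called. Kcnh3 was called higher in eGFP than in tdTomato with an adjusted p of 0.0495, lost in 20 of 27 alternatives. It was not above the receptor genes in any fraction. Kcnh1, Kcnh4 and Kcnh7 were not called.

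The small-conductance calcium-activated (SK) channels respond to calcium alone. Kcnn3 (SK3) was at 90.6, 99.3, 232 and 122 CPM in eGFP, at 87.9, 106, 189 and 124 CPM in eGFP/tdTomato, and at 6.28, 5.54, 4.43 and 5.09 CPM in tdTomato. Kcnn2 (SK2) was at 33.9, 64.9, 105 and 60.1 CPM in eGFP, at 66.5, 79.8, 118 and 71.0 CPM in eGFP/tdTomato, and at 4.45, 1.69, 3.42 and 2.44 CPM in tdTomato. For both, the fractions with eGFP overlapped and every tdTomato library was far lower. Kcnn3 was 23.8-fold higher in eGFP/tdTomato (adjusted p = 4.99e-08) and 25.5-fold higher in eGFP (adjusted p = 3.80e-08) than in tdTomato, and Kcnn2 28.1-fold (adjusted p = 1.11e-07) and 22.2-fold higher (adjusted p = 1.98e-07). Their ratio per exon length, Kcnn3 over Kcnn2, was 1.51 ± 0.34 in eGFP, 1.07 ± 0.15 in eGFP/tdTomato and 1.44 ± 0.65 in tdTomato.

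Kcnn4 (IK), an intermediate-conductance channel, had means of 5.87 ± 3.24, 2.50 ± 1.28 and 0.447 ± 0.365 CPM and was higher in both fractions with eGFP than in tdTomato, in eGFP/tdTomato with an adjusted p of 0.0313 that 12 of 27 alternatives lost. Kcnt1 (Slack), opened by sodium, was higher in both too, at 17.1 ± 5.85 and 15.7 ± 3.32 CPM against 1.53 ± 0.948 CPM. Kcnu1 (Slo3), known from sperm, was at 4.63, 5.96, 0.715 and 2.38 CPM in eGFP, at 3.72, 5.26, 1.51 and 2.41 CPM in eGFP/tdTomato, and at 5.52, 5.78, 5.17 and 5.24 CPM in tdTomato. Its fractions overlapped and it was not called, nor were Kcnn1 and Kcnt2. Of the 8 genes of this subfamily, 4 were higher in both fractions with eGFP than in tdTomato and none lower. The share of protein-coding genes of at least 1 CPM that were higher was 23.2% in eGFP/tdTomato and 26.9% in eGFP.

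Other genes that move or organise potassium were taken from a list of 45 pumps, cotransporters, channel partners and scaffolds, of which 44 were tested. Against tdTomato, 18 were higher and 12 lower in eGFP/tdTomato, where 16.8% and 12.4% of all genes tested were, and 21 were higher and 10 lower in eGFP, where 20.4% and 14.9% were. For the protein-coding genes of at least 1 CPM the shares were 23.2% and 19.5%, and 26.9% and 23.8%. Between eGFP/tdTomato and eGFP, 1 gene of the list was called, lower in eGFP/tdTomato, as were 1.67% of all genes and 2.82% of those protein-coding genes. The median log2 fold change of the list was -0.05 for eGFP/tdTomato against eGFP, 1.10 for eGFP/tdTomato against tdTomato and 1.06 for eGFP against tdTomato. It was -0.02, 0.70 and 0.79 over all genes, and 0.05, 0.236 and 0.195 over those protein-coding genes. Higher in both fractions with eGFP were the sodium-potassium pump subunit Atp1b2, the water channel Aqp4, the pump regulator Fxyd6, Dag1 and Dtna of the dystrophin complex that anchors Kir4.1, and the Kv4 partner Dpp6. Atp1b2 had 1648 ± 500.2 CPM in eGFP, 3111 ± 612 CPM in eGFP/tdTomato and 23.97 ± 5.70 CPM in tdTomato, and Dpp6 had 138 ± 42.2, 215 ± 38.6 and 39.4 ± 10.3 CPM. Higher in tdTomato were the sodium-potassium-chloride cotransporter Slc12a2 (NKCC1), at 633 ± 179 CPM against 29.8 ± 6.45 and 33.0 ± 4.38 CPM, its regulating kinase Wnk1, and Lgi3 and Adam22, members of families known from Kv1 channel complexes of axons. Slc12a4, a potassium-chloride cotransporter, was higher in eGFP/tdTomato than in tdTomato (adjusted p = 0.00284).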

How the data were processed

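Raw counts per Ensembl gene were deposited by the authors, 1 file per library, without normalization. Reads were aligned with STAR to GRCm38 and counted with HTSeq, per the submitters' processing notes; their versions, the annotation release and the strand mode are not given in the sources used here. Of 53465 gene rows, 53360 (99.8%) matched GENCODE M21, which gave symbols, positions and exon lengths. Rows that name no gene stayed out of library sizes and tests.

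CPM was scaled with TMM factors, and RPKM is CPM per 1000 bases of merged exons. Counts were tested with edgeR 4.0.16 in R 4.3.3 (robust quasi-likelihood test, filterByExpr, all 12 libraries, fraction as the only factor), with Benjamini-Hochberg adjustment over 29361 genes. Alternatives used limma 3.58.1, DESeq2 1.42.0, other scalings and filters, a replicate block, a covariate for reads outside genes and left-out libraries. No libraries were identical. Gene counts of 12564767 to 36505583 per library set the precision, and limits from a count of 0 cover counting error only.

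The members and lists were chosen with earlier results of these data known. Values in every library were computed for 25 members, of which 24 are reported: those called between eGFP/tdTomato and eGFP, the 2 most abundant of a subfamily by RPKM in any fraction, and the 3 largest called changes per direction in a comparison among genes of at least 5 CPM whose libraries did not overlap. Of the potassium handling list, the 12 with the highest mean CPM could be named. Other genes are given by mean and SD or as not called. Some genes that these rules take, 4 of them described members, are not reported here by name, and they stay in every count.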

Additional observations from a re-analysis of the deposited data

Results flagged for a closer look

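The 25 members with values computed in every library formed 75 groups of 4 libraries, and 6 groups had 1 library set far apart from the other 3; chance gives about 1 in 20 groups. Kcna1 in eGFP replicate 1 was at 4.29 CPM, against 0.0924 to 0.792 CPM in the other eGFP libraries, in the library with the highest share of reads outside genes. Kcnh5 in tdTomato replicate 2 was at 6.89 CPM, against 3.10 to 3.46 CPM. Kcnj12 in eGFP/tdTomato replicate 3 was at 0.414 CPM, against 0.989 to 1.04 CPM, and in tdTomato replicate 1 it was at 10.9 CPM, against 6.71 to 7.40 CPM. Kcnk13 in eGFP/tdTomato replicate 3 was at 4.33 CPM, against 1.63 to 2.01 CPM. Kcnk2 in eGFP replicate 2 was at 33.5 CPM, against 16.7 to 19.4 CPM.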

How the results depend on the processing

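Over 27 alternatives, 6385 log2 fold changes of described members were compared with those reported: 6065 kept their side of the threshold, 177 lost a call, 143 gained one, and no called member changed sign, while members without a call could. Of the calls, 1 of 3 between eGFP/tdTomato and eGFP, 27 of 41 between eGFP/tdTomato and tdTomato, and 28 of 38 between eGFP and tdTomato held in all of them. Members higher in eGFP/tdTomato than in eGFP numbered 2; there were 4 with DESeq2 (with Kcnip2 and Kcnj10), 4 with limma-voom (with Kcnj10 and Kcnc4) and 4 with a replicate block (with Kcnj10 and Kcna2), and 0 to 5 when libraries were left out, 0 of them without all 3 libraries of replicate 5, where Kcnip3 had an adjusted p of 0.0735. Members higher in eGFP than in eGFP/tdTomato numbered 1, and 3 without scaling or with DESeq2 (with Kcnj3 and Kcnk2). Members higher in tdTomato than in eGFP/tdTomato numbered 11, 19 in a fit of only the 2 fractions compared, and 7 to 15 when libraries were left out, 7 of them without all 3 libraries of replicate 1. Members higher in tdTomato than in eGFP numbered 11, and 9 to 17 when libraries were left out, 17 of them without eGFP replicate 1. The cause was not tested. Libraries with the same number were not taken as pairs, since the labels do not say what they share. The correlation of their deviations ran from -0.23 to 0.60, and was 0.588, 0.596 and 0.49 for replicate 3. With the replicate block 31 members were higher and 12 lower in eGFP/tdTomato than in tdTomato, and 30 and 13 in eGFP. Over all genes, the block called 566 higher and 673 lower in eGFP/tdTomato than in eGFP, against 239 and 491 without it. Members with few counts in tdTomato, such as Kcna5 with 15 in all, have imprecise fold changes.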

Other observations

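The files also hold 5 antisense genes named for Kcn genes, which are no members. Kcnq1ot1, the imprinted antisense transcript of Kcnq1, was at 163 ± 19.5 CPM (SD, n = 4) in eGFP, 153 ± 16.3 CPM in eGFP/tdTomato and 297 ± 59.9 CPM in tdTomato. It was lower in eGFP/tdTomato (log2 fold change -0.96, edgeR adjusted p = 0.000593) and in eGFP (-0.86, adjusted p = 0.00124) than in tdTomato, with no overlap of libraries. Kcnmb4os2, antisense to Kcnmb4, was at 2.41 ± 1.47, 0.662 ± 0.474 and 0.293 ± 0.200 CPM and was higher in eGFP than in tdTomato (adjusted p = 0.00991). Kcnd3os, Kcnab3os and Kcnmb4os1 had means under 1 CPM in every fraction.

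Several members lie next to each other in the genome. The neighbours given here were chosen after their values were seen, and whether neighbours share a pattern over fractions was not tested. Kcnj16 and Kcnj2 lie 38.2 kb apart on chromosome 11, and Kcnj2 had 1.82 ± 1.16, 1.56 ± 0.448 and 3.83 ± 2.26 CPM in eGFP, eGFP/tdTomato and tdTomato, with no call. Kcnj9 and Kcnj10 lie 11.9 kb apart on chromosome 1, and Kcnj9 had 1.76 ± 1.26, 1.49 ± 0.694 and 0.731 ± 0.842 CPM, with no call. On chromosome 6, Kcna5, Kcna1 and Kcna6 follow each other; against tdTomato, Kcna5 was higher in eGFP/tdTomato, Kcna1 was lower and Kcna6 was not called, though its mean was also highest in tdTomato.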
